A study of Mus musculus with 12 samples.

Results

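RNA of 10 mouse genes was followed in CD4+ T cells: the alpha tubulin genes Tuba1a, Tuba1b, Tuba1c and Tuba4a, the beta tubulin genes Tubb2a, Tubb4b, Tubb5 and Tubb6, the tubulin deacetylase gene Hdac6 and the tubulin acetyltransferase gene Atat1. They were chosen by name, because tubulin is a known substrate of SIRT2, but with earlier results of these data known. They are 10 of the 23479 gene symbols in the count tables and 10 of the 10981 genes that passed the filter on low counts. The cells came from spleens of Sirt2-/- mice (KO) and of wild-type C57BL/6J mice (WT), with C57BL/6 as the labelled background of the KO mice. They were enriched by removal of other cells to a purity above 95% by flow cytometry, per the labels. The 4 groups were KO cells stimulated for 24 h with anti-CD3 bound to the plate, 5 µg/ml (KO 24 h), WT cells treated likewise (WT 24 h), KO cells taken directly for RNA (KO 0 h) and WT cells taken directly for RNA (WT 0 h), each with 3 libraries. The labels name no other stimulus, and they give neither the exons deleted in Sirt2-/- mice nor the age of the animals. They also do not link replicates to individual animals, so every p-value reflects the spread between libraries, and part of that spread may be technical.

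Microtubules are polymers of heterodimers of alpha and beta tubulin, and each family is encoded by several isotype genes with highly similar proteins. ATAT1 acetylates a lysine of alpha tubulin that faces the lumen of the microtubule, and HDAC6 and the NAD-dependent deacetylase SIRT2 can remove that acetyl group. In T cells, engagement of the antigen receptor moves the centrosome and its microtubules towards the contact site. RNA levels report on the genes for these proteins and not on acetylation itself, which was not measured here.

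The acetylated lysine is residue 40 of alpha tubulin, counted from the start codon. The stretch of the coding sequence around it, codons 35 to 45 in the GENCODE mouse transcripts (GRCm38), is shown for the 4 alpha tubulin genes because it holds the site that the enzymes act on. It also shows how little these genes differ. Capitals mark codon 40.
Tuba1a: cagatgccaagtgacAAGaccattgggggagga
Tuba1b: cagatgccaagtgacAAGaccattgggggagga
Tuba1c: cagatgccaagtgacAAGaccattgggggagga
Tuba4a: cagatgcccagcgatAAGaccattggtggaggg
All 4 genes had the lysine codon AAG at this position. Over these 33 bases Tuba1a, Tuba1b and Tuba1c had no difference, and Tuba4a differed from each of them at 5 bases. Over the whole coding sequence of 1353 bases, Tuba1a and Tuba1b were 98.3% identical. Reads that align to several places stood in an entry of their own and were counted for no gene, so the level of each gene rests on the parts of its transcripts that set it apart. Only 24.5% of the 50-base words of Tuba1a transcripts and 24.9% of those of Tuba1b occurred in no other annotated gene, against 47.3% for Tuba1c and 64.6% for Tuba4a. Among beta tubulins the share was 50.4% for Tubb2a and 58.7% for Tubb4b, against 99.9% for Tubb5. It was 100.0% for Tubb6 and Hdac6 and 90.8% for Atat1. These shares also leave out words of genes that overlap at the same place, whose reads need not align to several places. Such genes include Stk16, with 34.6% of the words of Tuba4a, and Gm16279, with 9.2% of those of Atat1. Gm49450 overlaps 26.2% of the exon length of Tuba1a and 22.7% of that of Tuba1b. Whether reads of such overlaps were counted depends on the annotation and strand option, which are uncertain. Read length and strandedness are not stated in the labels. Levels of Tuba1a, Tuba1b, Tuba1c, Tuba4a, Tubb2a, Tubb4b and Atat1 are therefore uncertain relative to other genes. Changes between groups compare the same parts of a gene with themselves.

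**Figure D1:**
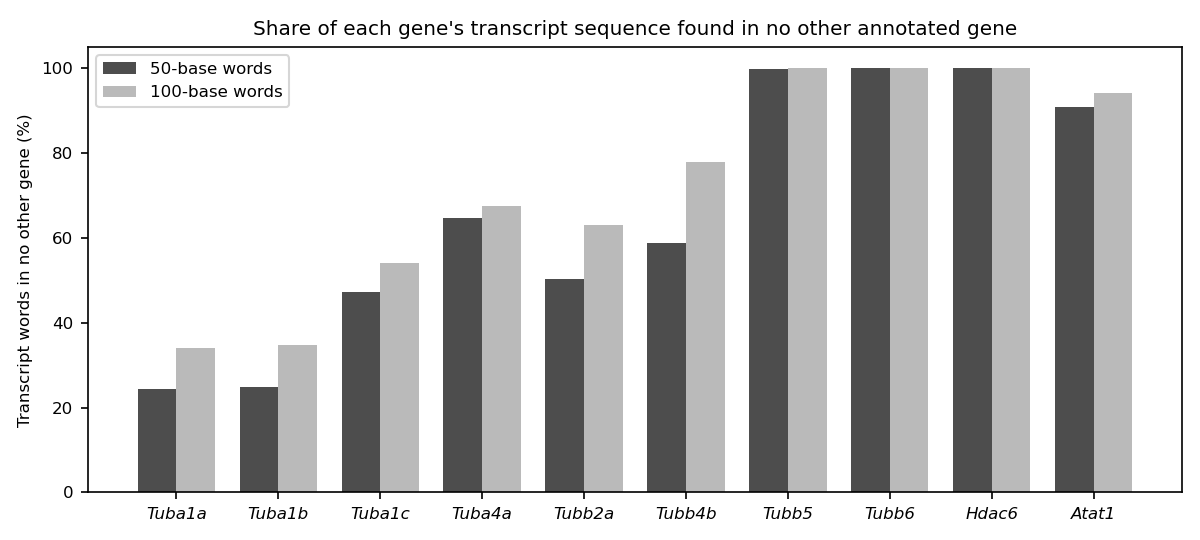
Share of the 50-base words (dark bars) and 100-base words (light bars) of each gene's annotated transcripts, in percent, that occurred in the transcripts of no other annotated gene. With 50-base words, Tuba1a at 24.5% and Tuba1b at 24.9% had the lowest shares, and Tubb5, Tubb6 and Hdac6 were at or near 100.0%.

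The libraries held 3.63 to 10.0 megareads in genes, on average 4.61 ± 0.879 in KO 24 h, 6.56 ± 1.71 in WT 24 h, 7.45 ± 2.24 in KO 0 h and 7.60 ± 1.19 in WT 0 h (SD, n = 3 each). Sirt2 averaged 13.2 ± 5.59 CPM (counts per megaread, with library sizes scaled by TMM factors) in KO 24 h against 67.1 ± 7.91 CPM in WT 24 h, and 12.4 ± 3.59 in KO 0 h against 74.5 ± 9.41 in WT 0 h. Each KO library lay below each WT library. The 7 CD4 T cell markers summed to 2610 to 3000 CPM in KO 24 h, 2740 to 2940 in WT 24 h, 5810 to 6610 in KO 0 h and 5560 to 6020 in WT 0 h. Markers of NK cells summed to 17.7 to 21.1 CPM in KO 24 h, 13.6 to 28.3 in WT 24 h, 80.2 to 89.7 in KO 0 h and 56.3 to 62.3 in WT 0 h. Those of CD8 T cells, Cd8a and Cd8b1, summed to 8.78 to 14.7 CPM in KO 24 h, 8.08 to 11 in WT 24 h, 30.7 to 35.7 in KO 0 h and 17.3 to 18.5 in WT 0 h. Cd8b1 made up most of these sums and was 1.80 times as high in KO as in WT at 0 h (edgeR QL, BH-adjusted p = 0.0176). Cd8a averaged only 0.616 CPM in KO 24 h, 0.646 in WT 24 h, 1.16 in KO 0 h and 0.679 in WT 0 h. It did not reach the low-count filter and was not tested. The B cell marker Cd22 averaged 1.32 CPM in KO 0 h against 7.40 CPM in WT 0 h (0.178 times, edgeR QL, BH-adjusted p = 0.0118) and reached the low-count filter through the WT 0 h libraries alone, so a lower KO level was built into its selection for testing. B cell markers reached at most 29.2 CPM, those of myeloid cells 10.5 CPM, of platelets 5.62 CPM and of erythroid cells 0.173 CPM in any library. Hbb-bs, Hbb-bt, Hba-a1, Ppbp and Gp9 were at 0 in every library. The sums for CD4 T, CD8 T, B and NK cells were lower at 24 h without overlap in both genotypes, as were those for myeloid cells (0.746 to 5.41 CPM in KO 24 h against 5.96 to 10.5 in KO 0 h, and 2.09 to 5.96 in WT 24 h against 6.5 to 8.72 in WT 0 h). The part of these cells in the differences over time and between genotypes was not tested.

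After 24 h of anti-CD3, tubulin RNA changed by isotype in both genotypes. Tuba1a, Tubb2a and Tubb5 fell, and Tuba1c rose. Tubb6 was also higher at 24 h, but it reached the low-count filter only through the 24 h libraries, so a rise was built into its selection for testing. Tuba4a fell by a small amount and passed the test in KO cells only, and Tuba1b and Tubb4b did not pass in either genotype. Of the acetylation enzymes, Atat1 rose and Hdac6 did not pass. In KO cells 7 of 10 genes passed (3 higher and 4 lower), where 40.4% of all tested genes passed, 19.4% higher and 21% lower. In WT cells 6 of 10 passed (3 higher and 3 lower), where 40.7% of all tested genes passed, 20.2% higher and 20.5% lower. The 24 h and 0 h libraries had no overlap for 6 of 10 genes in KO, where 49.4% of all tested genes had none, and for 7 of 10 in WT, where 49.3% had none. Without Tubb6, 6 of 9 genes passed in KO (2 higher and 4 lower) and 5 of 9 in WT (2 higher and 3 lower), and 5 of 9 in KO and 6 of 9 in WT had no overlap. The median log2 fold change over these 9 genes was -0.23 in KO and -0.05 in WT cells, and with Tubb6 it was -0.09 in KO and 0.01 in WT cells, beside -0.0028 in KO and 0.0027 in WT cells over all tested genes. Genes passed at a Benjamini-Hochberg (BH) adjusted p below 0.05 in edgeR's quasi-likelihood (QL) test over all tested genes. CPM is a share of a library, so in these bulk samples fewer cells of a type and less RNA per cell cannot be told apart.

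**Figure D2:**
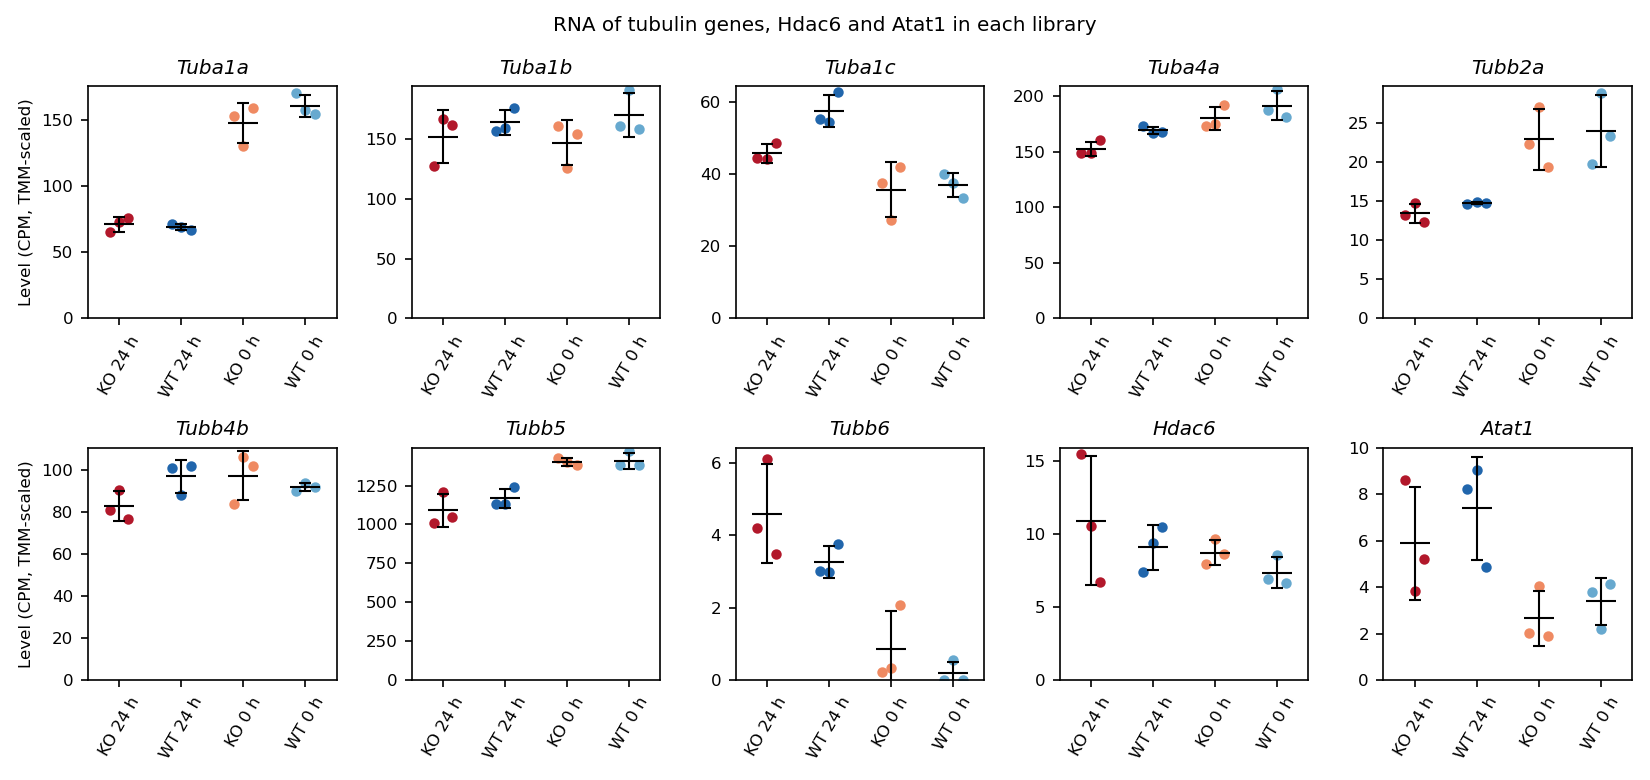
Level of each gene in CPM (linear axes starting at 0, a scale for each gene), 1 point per library, in KO 24 h, WT 24 h, KO 0 h and WT 0 h, with the mean and SD of 3 libraries. Tuba1a at 24 h (64.9 to 75.8 CPM) lay below every 0 h library (130 to 170 CPM), while the KO and WT points of a time overlap for most genes.

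Tuba1a, an alpha tubulin gene best known from neurons, had the largest fall of the 10 in both genotypes. It stood at 64.9, 72.4 and 75.8 CPM in KO 24 h and at 70.9, 69.2 and 67 in WT 24 h. At 0 h it stood at 153, 130 and 159 CPM in KO and at 170, 157 and 154 in WT. The 24 h and 0 h libraries did not overlap in either genotype. The level at 24 h was 0.481 times that at 0 h in KO cells (95% interval 0.418 to 0.553, log2 -1.06, SE 0.100, edgeR QL, BH-adjusted p = 3.64e-12). In WT cells it was 0.431 times that at 0 h (interval 0.375 to 0.494, log2 -1.22, SE 0.0982, edgeR QL, BH-adjusted p = 2.57e-14).

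Tuba1b, the neighbouring alpha tubulin gene on chromosome 15, is widely expressed. It had 127, 167 and 162 CPM in KO 24 h, 157, 159 and 176 in WT 24 h, 161, 126 and 154 in KO 0 h, and 161, 191 and 158 in WT 0 h. The libraries of the 2 times overlapped. Its 24 h level was 1.03 times that at 0 h in KO cells (interval 0.895 to 1.19) and 0.966 times in WT cells (interval 0.840 to 1.11), and neither passed (edgeR QL, BH-adjusted p = 0.754 in KO and 0.73 in WT).

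Tuba1c, the third alpha tubulin gene of this cluster on chromosome 15, rose. It had 44.4, 44.2 and 48.7 CPM in KO 24 h, against 37.7, 27.4 and 42.1 in KO 0 h. WT 24 h had 55.4, 54.6 and 62.7 CPM, against 40.1, 37.5 and 33.4 CPM in WT 0 h. In both genotypes each 24 h library lay above each 0 h library, by a narrow gap in KO. The 24 h level was 1.28 times that at 0 h in KO cells (interval 1.05 to 1.55, edgeR QL, BH-adjusted p = 0.039) and 1.56 times in WT cells (interval 1.29 to 1.88, edgeR QL, BH-adjusted p = 0.000128). By rounded adjusted p-values, the rise in KO cells lost its call in 4 of the 6 refits without 1 library. The adjusted p (edgeR QL) reached up to 0.225.

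Tuba4a lies on chromosome 1 and is the alpha tubulin that ends without the usual tyrosine. It had 149, 149 and 160 CPM in KO 24 h, against 173, 175 and 192 in KO 0 h. WT 24 h had 173, 167 and 168 CPM, against 187, 206 and 181 CPM in WT 0 h. Each 24 h library lay below each 0 h library of its genotype, but the differences were small. In KO cells the level at 24 h was 0.848 times that at 0 h (interval 0.750 to 0.958, edgeR QL, BH-adjusted p = 0.0264) and 0.884 times in WT cells (interval 0.784 to 0.997, edgeR QL, BH-adjusted p = 0.0962). By rounded adjusted p-values, the call in KO cells was lost in 5 of the 6 refits without 1 library (edgeR QL, up to 0.185). It was also lost without a filter on low counts (edgeR QL, adjusted p = 0.086). Its exons overlap those of Stk16, a kinase gene on the other strand, over 37.3% of their length. Stk16 averaged 29.7 ± 2.09 CPM in KO 24 h, 26.4 ± 4.31 in WT 24 h, 29.8 ± 0.688 in KO 0 h and 30.5 ± 3.74 in WT 0 h, and did not pass in any comparison.

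Tubb5 is the beta tubulin gene of most dividing cells and the most abundant of the 10. It had 1010, 1210 and 1050 CPM in KO 24 h and 1130, 1130 and 1240 in WT 24 h. At 0 h it had 1430, 1400 and 1380 CPM in KO and 1380, 1470 and 1380 in WT. All 24 h libraries lay below all 0 h libraries. The 24 h level was 0.777 times that at 0 h in KO cells (interval 0.690 to 0.875, edgeR QL, BH-adjusted p = 0.000505) and 0.829 times in WT cells (interval 0.736 to 0.933, edgeR QL, BH-adjusted p = 0.00844).

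Tubb2a, a beta tubulin gene abundant in brain, fell further from a lower level. It had 13.2, 14.8 and 12.4 CPM in KO 24 h and 14.7, 14.9 and 14.8 in WT 24 h. At 0 h it had 22.3, 27.1 and 19.4 CPM in KO and 19.7, 28.9 and 23.3 in WT. The 2 times did not overlap, and the 0 h libraries were more spread than those at 24 h. In KO cells the level at 24 h was 0.590 times that at 0 h (interval 0.451 to 0.773, edgeR QL, BH-adjusted p = 0.00131) and 0.615 times in WT cells (interval 0.475 to 0.797, edgeR QL, BH-adjusted p = 0.0019). Its near copy Tubb2b holds 45.6% of its 50-base words, so some reads of either gene could not be assigned.

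Tubb4b, a widely expressed beta tubulin gene also used in cilia, had 80.8, 90.6 and 76.8 CPM in KO 24 h, against 84.0, 106 and 102 in KO 0 h. WT 24 h had 101, 87.9 and 102 CPM, against 90.0, 93.7 and 91.8 CPM in WT 0 h. The libraries of the 2 times overlapped in both genotypes. The 24 h level was 0.855 times that at 0 h in KO cells (interval 0.738 to 0.991, edgeR QL, BH-adjusted p = 0.0832) and 1.05 times in WT cells (interval 0.911 to 1.22, edgeR QL, BH-adjusted p = 0.602).

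Tubb6, a divergent beta tubulin gene on chromosome 18, was the rarest. It had 23, 35 and 14 reads in KO 24 h and 15, 26 and 27 reads in WT 24 h, but 2, 2 and 11 reads in KO 0 h and 0, 4 and 0 reads in WT 0 h. Every 24 h library lay above every 0 h library of its genotype, at 3.48 to 6.11 CPM in KO and 2.98 to 3.76 in WT. It passed the low-count filter through the 24 h groups, since only 1 KO and 0 WT libraries at 0 h reached the filter's 1.54 CPM, and its test over time is therefore not given as support for a rise. As a description only, the ratio of summed reads, scaled by library size, was 6.58 between KO 24 h and KO 0 h (72 and 15 reads). Between WT 24 h and WT 0 h it was 17.1 (68 and 4 reads). A ratio above 1 was built into the selection, and summed reads leave out the spread between libraries. Of the 15 reads in KO 0 h, 11 came from replicate 3, and without that library the KO ratio was 18.4 (72 and 4 reads). Without KO 0 h replicate 1 it was 4.19 (72 and 13 reads). The 4 reads in WT 0 h all came from replicate 2, and without it the level in WT 24 h was at least 15-fold higher, with the group of 0 reads set to a floor of 3 reads over the group. Without WT 0 h replicate 3 the WT ratio was 10.6 (68 and 4 reads).

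Atat1, the acetyltransferase gene, rose in both genotypes. It had 8.59, 3.84 and 5.22 CPM in KO 24 h, against 2.04, 4.03 and 1.88 in KO 0 h. WT 24 h had 8.23, 9.06 and 4.88 CPM, against 3.81, 2.21 and 4.13 CPM in WT 0 h. The times did not overlap in WT, whereas in KO replicate 2 at 24 h lay below replicate 2 at 0 h. In KO cells the level at 24 h was 2.23 times that at 0 h (interval 1.26 to 3.97, edgeR QL, BH-adjusted p = 0.021) and 2.18 times in WT cells (interval 1.27 to 3.73, edgeR QL, BH-adjusted p = 0.0164). These levels rest on 10 to 79 reads per library. By rounded adjusted p-values, both calls were lost in 3 of 6 refits without 1 library. The adjusted p (edgeR QL) reached up to 0.223 in KO (without KO 24 h replicate 1) and 0.103 in WT (without WT 24 h replicate 2). Over 14.04% of its exon length Atat1 overlaps Gm16279, a predicted gene on the other strand.

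Hdac6, the deacetylase gene on chromosome X, had 15.5, 10.6 and 6.71 CPM in KO 24 h, against 7.93, 9.67 and 8.65 in KO 0 h. WT 24 h had 7.43, 9.41 and 10.5 CPM, against 6.92, 8.58 and 6.63 CPM in WT 0 h. The times overlapped in both genotypes, and KO 24 h replicate 1 was the highest of the 12 libraries. In KO cells the level at 24 h was 1.27 times that at 0 h (interval 0.870 to 1.87, edgeR QL, BH-adjusted p = 0.326) and 1.24 times in WT cells (interval 0.847 to 1.82, edgeR QL, BH-adjusted p = 0.384).

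**Figure D3:**
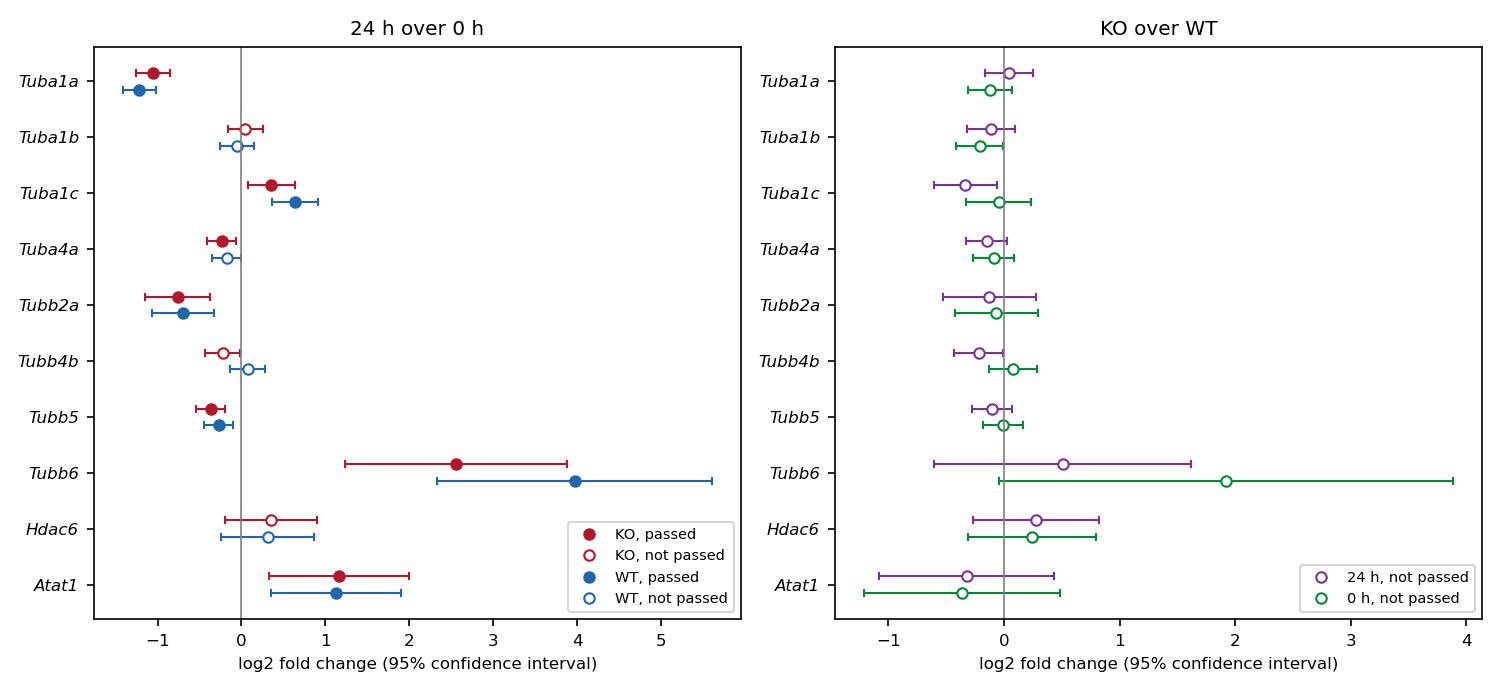
Log2 fold changes with 95% confidence intervals from edgeR's quasi-likelihood fit, 24 h over 0 h in KO and WT cells (left) and KO over WT at 24 h and 0 h (right); filled points passed at a BH-adjusted p below 0.05. The left panel has 7 filled points in KO and 6 in WT, Tubb6 among them, whose rise its selection for testing had built in, and the right panel has 0.

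The question the series poses is what loss of SIRT2 changes, and for these 10 genes no difference between KO and WT cells passed the test. At 24 h, 0 of 10 passed (edgeR QL, lowest BH-adjusted p = 0.583), where 0.273% of all tested genes passed, and 2 of 10 had an unadjusted p below 0.05, beside 7.06% of all tested genes. At 0 h, 0 of 10 passed (edgeR QL, lowest BH-adjusted p = 0.609), where 0.346% of all tested genes passed, and 1 of 10 had an unadjusted p below 0.05, beside 8% of all tested genes. DESeq2 called 0 of 10 at either time. The median log2 fold change of the 10 genes was -0.12 at 24 h and -0.06 at 0 h, beside -0.0095 at 24 h and 0.0038 at 0 h over all tested genes. Without a pass, the intervals say how large a difference these libraries leave possible.

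For the abundant genes those intervals were narrow. Tubb5 in KO cells was 0.932 times the WT level at 24 h (interval 0.828 to 1.05) and 0.994 times at 0 h (interval 0.883 to 1.12). Tuba1a in KO was 1.03 times the WT level at 24 h (interval 0.891 to 1.19) and 0.920 times at 0 h (interval 0.807 to 1.05). Tuba1b in KO was 0.925 times the WT level at 24 h (interval 0.802 to 1.07) and 0.865 times at 0 h (interval 0.752 to 0.996), where its unadjusted p was below 0.05 and its BH-adjusted p was 0.609 (edgeR QL). A difference of the size seen over time for Tuba1a lay outside all of these intervals.

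Tuba1c and Tuba4a at 24 h were the only genes of the 10 whose KO and WT libraries did not overlap, where 12.9% of all tested genes had no overlap. Tuba1c had 44.2 to 48.7 CPM in KO against 54.6 to 62.7 in WT, 0.793 times the WT level (interval 0.656 to 0.959, edgeR QL, BH-adjusted p = 0.583). Tuba4a had 149 to 160 CPM in KO against 167 to 173 in WT, 0.900 times the WT level (interval 0.797 to 1.02, edgeR QL, BH-adjusted p = 0.788). At 0 h 0 of 10 lacked overlap, where 12.4% of all tested genes did. Tuba1c in KO was then 0.968 times the WT level (interval 0.797 to 1.17), and Tuba4a 0.939 times (interval 0.833 to 1.06). Tubb4b in KO was 0.858 times the WT level at 24 h (interval 0.741 to 0.994, edgeR QL, BH-adjusted p = 0.696) and 1.06 times at 0 h (interval 0.914 to 1.22).

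For the rarer genes the intervals were wide. Tubb2a in KO was 0.915 times the WT level at 24 h (interval 0.693 to 1.21) and 0.954 times at 0 h (interval 0.743 to 1.23). Hdac6 in KO was 1.21 times the WT level at 24 h (interval 0.830 to 1.77) and 1.18 times at 0 h (interval 0.804 to 1.73). Atat1 in KO was 0.799 times the WT level at 24 h (interval 0.472 to 1.35) and 0.779 times at 0 h (interval 0.434 to 1.40). For both enzyme genes no difference passed, and these intervals also hold the spread between libraries. Tubb6 had 1.45 times the scaled reads of WT in KO at 24 h (72 and 68 reads, counting interval 1.03 to 2.05) and 3.78 times at 0 h (15 and 4 reads, counting interval 1.20 to 15.6). Without KO 0 h replicate 3 the ratio at 0 h was 1.35 (4 and 4 reads), without KO 0 h replicate 1 it was 5.93 (13 and 4 reads), and without WT 0 h replicate 3 it was 2.34 (15 and 4 reads). The counting intervals leave out the spread between libraries, and neither difference passed (edgeR QL, BH-adjusted p = 0.931 at 24 h and 0.636 at 0 h).

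Whether the change over time differed between KO and WT was tested as the interaction, and 0 of 10 genes passed (edgeR QL), where 0.00911% of all tested genes passed. DESeq2 called 0 of 10, and 1 of 10, Tubb4b, had an unadjusted p below 0.05 in edgeR, beside 5.24% of all tested genes. Its change over time was log2 -0.23 in KO and 0.07 in WT, a difference of -0.30 (95% interval -0.60 to -0.0023, BH-adjusted p = 0.942, edgeR QL). Tuba1c changed by log2 0.35 in KO and 0.64 in WT, a difference of -0.29 (interval -0.68 to 0.11). Tuba1a changed by log2 -1.06 in KO and -1.22 in WT, a difference of 0.16 (interval -0.12 to 0.44). Tuba4a passed over time in KO and not in WT, and the difference between these changes did not pass (log2 -0.06, interval -0.31 to 0.19).

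Set per kilobase of merged exons, Tubb5 led in all 4 groups, with 327 ± 31.2 CPM per kilobase in KO 24 h, 351 ± 19.7 in WT 24 h, 422 ± 7.86 in KO 0 h and 424 ± 15.8 in WT 0 h. The next places differed by time. At 24 h Tuba1b came next, at 81.1 ± 11.4 CPM per kilobase in KO and 87.5 ± 5.40 in WT. It was followed in KO by Tuba4a at 41.2, Tubb4b at 39.6 and Tuba1a at 39.4 CPM per kilobase, whose libraries overlapped. In WT 24 h Tubb4b at 46.4 and Tuba4a at 45.8 CPM per kilobase overlapped, and Tuba1a at 38.3 lay below both. At 0 h Tuba1a had 81.8 ± 8.50 CPM per kilobase in KO and 88.9 ± 4.78 in WT. Tuba1b had 78.3 ± 9.69 in KO 0 h and 90.6 ± 9.67 in WT 0 h, and its libraries overlapped those of Tuba1a.

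Lower down, Tuba1c had 20 CPM per kilobase in KO 24 h, 25.2 in WT 24 h, 15.6 in KO 0 h and 16.2 in WT 0 h. Tubb2a had 8.37 in KO 24 h, 9.18 in WT 24 h, 14.2 in KO 0 h and 14.9 in WT 0 h. These 2 genes overlapped at 0 h and not at 24 h. The 3 rarest were Hdac6, at 1.89 CPM per kilobase in KO 24 h, 1.56 in WT 24 h, 1.5 in KO 0 h and 1.27 in WT 0 h, with Atat1 and Tubb6. Atat1 stood at 1.28 in KO 24 h, 1.61 in WT 24 h, 0.578 in KO 0 h and 0.738 in WT 0 h. Tubb6 stood at 1.89 in KO 24 h, 1.33 in WT 24 h, 0.356 in KO 0 h and 0.0757 in WT 0 h. Their libraries overlapped at 24 h in both genotypes. At 0 h Hdac6 lay above both in each genotype, and Atat1 and Tubb6 overlapped in KO only. Per kilobase of the longest transcript Atat1 moved up, to 2.89 ± 1.20 CPM in KO 24 h, 3.63 ± 1.09 in WT 24 h, 1.30 ± 0.589 in KO 0 h and 1.66 ± 0.503 in WT 0 h. Hdac6 by that length had 2.18 ± 0.878 in KO 24 h, 1.81 ± 0.305 in WT 24 h, 1.74 ± 0.174 in KO 0 h and 1.46 ± 0.209 in WT 0 h. Each Atat1 library then lay above each Hdac6 library in WT 24 h, and the 2 genes overlapped in the other 3 groups.

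This order depends on the length that a gene's reads could come from. Taking the number of 50-base words found in no other gene as the length, a choice made after seeing the data, put Tuba1b at 325 ± 45.8 CPM per kilobase in KO 24 h, 351 ± 21.7 in WT 24 h, 314 ± 38.9 in KO 0 h and 364 ± 38.8 in WT 0 h. Tubb5 by the same measure had 324 ± 30.9 in KO 24 h, 348 ± 19.5 in WT 24 h, 417 ± 7.78 in KO 0 h and 420 ± 15.7 in WT 0 h. By this length the libraries of Tubb5 and Tuba1b overlapped at 24 h in both genotypes, and those of Tubb5 lay higher at 0 h. Tuba1a moved to 166 ± 13.0 CPM per kilobase in KO 24 h, 161 ± 4.46 in WT 24 h, 344 ± 35.7 in KO 0 h and 374 ± 20.1 in WT 0 h, above Tuba4a and Tubb4b in every group. This length also leaves out bases shared with a gene at the same place, as for Tuba4a and Stk16, whose reads may have been counted. With 100-base words Tuba1b had 237 in KO 24 h, 256 in WT 24 h, 229 in KO 0 h and 265 in WT 0 h, and Tubb5 had 319 in KO 24 h, 342 in WT 24 h, 411 in KO 0 h and 413 in WT 0 h.

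Within the alpha tubulins, the share of Tuba1a was lower at 24 h and those of Tuba1b and Tuba1c were higher. Per kilobase of merged exons, Tuba1a made up 21.7% ± 0.355 of alpha tubulin RNA in KO 24 h and 19.5% ± 1.07 in WT 24 h, against 36.4% ± 0.216 in KO 0 h and 36.0% ± 2.36 in WT 0 h (SD, n = 3 each). Tuba1b made up 44.5% ± 2.82 in KO 24 h and 44.5% ± 1.44 in WT 24 h, against 34.9% ± 1.54 in KO 0 h and 36.6% ± 2.25 in WT 0 h. Tuba1c made up 11.1% ± 0.816 in KO 24 h and 12.8% ± 0.590 in WT 24 h, against 6.91% ± 0.824 in KO 0 h and 6.54% ± 0.462 in WT 0 h. For these 3 genes the libraries of the 2 times did not overlap. Tuba4a held 20% to 24.6% over all 12 libraries. In WT its share was higher at 24 h without overlap, at 22.3% to 24.1% against 20.4% to 21.3% at 0 h. In KO the times overlapped, at 21.3% to 24.6% against 20% to 23.8%. Unique 50-base words as the length moved Tuba1a to 27.8% in KO 24 h, 25.4% in WT 24 h, 45.0% in KO 0 h and 44.1% in WT 0 h. It moved Tuba1b to 54.5% in KO 24 h, 55.3% in WT 24 h, 41.1% in KO 0 h and 42.8% in WT 0 h, and Tuba1c to 7.30% in KO 24 h, 8.56% in WT 24 h, 4.39% in KO 0 h and 4.12% in WT 0 h. Tuba4a then held 8.64% to 11.4% over all libraries, with the words it shares with Stk16 left out of its length. In WT it again lay higher at 24 h without overlap, at 10.3% to 11.2% against 8.82% to 9.29%, and in KO the times overlapped. The direction over time was the same for Tuba1a, Tuba1b and Tuba1c, again without overlap. Shares within a family fall for a gene when another rises, so they are not independent of each other.

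Beta tubulin RNA was mostly Tubb5 in every group: 86.8% ± 0.573 in KO 24 h, 86.1% ± 0.683 in WT 24 h, 87.3% ± 1.36 in KO 0 h and 87.8% ± 0.404 in WT 0 h. Tubb4b made up 10.5% ± 0.441 in KO 24 h, 11.4% ± 0.701 in WT 24 h, 9.66% ± 1.16 in KO 0 h and 9.11% ± 0.217 in WT 0 h. Tubb2a held 2.22% in KO 24 h, 2.25% in WT 24 h, 2.94% in KO 0 h and 3.07% in WT 0 h. Tubb6 held at most 0.600% in any library. With unique 50-base words as the length, Tubb5 held 77.8% to 79.9% as a group mean, Tubb4b 16.5% in KO 24 h, 17.7% in WT 24 h, 15.1% in KO 0 h and 14.3% in WT 0 h, and Tubb2a 4.17% in KO 24 h, 4.21% in WT 24 h, 5.52% in KO 0 h and 5.78% in WT 0 h. Summed in CPM, the 4 alpha genes had 421 ± 31.8 CPM in KO 24 h, 460 ± 12 in WT 24 h, 510 ± 45.9 in KO 0 h and 559 ± 32.3 in WT 0 h. The 4 beta genes had 1190 ± 112 CPM in KO 24 h, 1280 ± 70.5 in WT 24 h, 1520 ± 20.9 in KO 0 h and 1530 ± 58.7 in WT 0 h. Every 24 h sum lay below every 0 h sum of its genotype for both families.

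**Figure D4:**
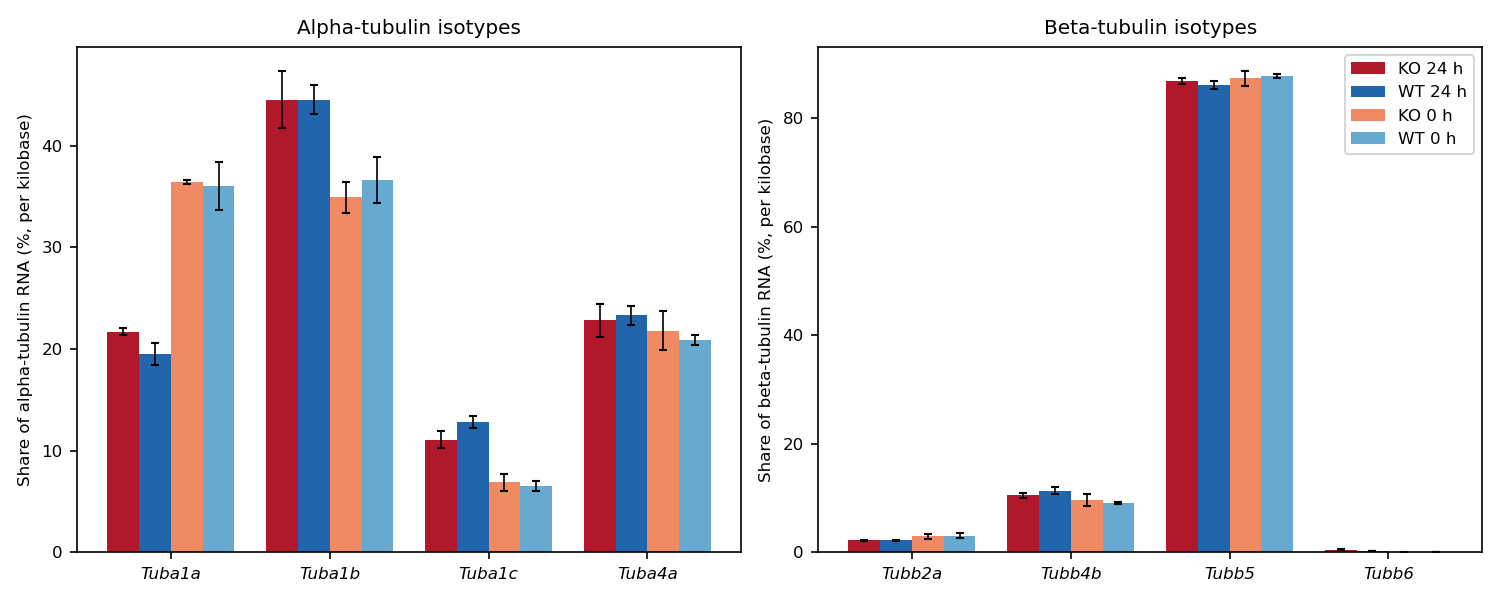
Share of each isotype in alpha tubulin RNA (left) and beta tubulin RNA (right), in percent, per kilobase of merged exons; bars are means of 3 libraries and whiskers are SD, in KO 24 h, WT 24 h, KO 0 h and WT 0 h. Tuba1a held 21.7% in KO 24 h and 19.5% in WT 24 h, against 36.4% in KO 0 h and 36.0% in WT 0 h, and Tubb5 held 86.1% to 87.8% in all groups.

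The promoters of Tuba1a and Tubb2a, which fell together, and of Tuba1c, which rose, are shown because these genes changed in opposite directions over time. Each run is the 250 bases before the start of the gene, 5′ to 3′ along the gene, from RefSeq (GRCm38.p6). Capitals mark 3 motifs searched on both strands. CCAAT reads as ATTGG on the other strand. GGGCGG reads as CCGCCC on the other strand. The third motif was TATAAA.
Tuba1a, chr15:98953502-98953751, minus strand: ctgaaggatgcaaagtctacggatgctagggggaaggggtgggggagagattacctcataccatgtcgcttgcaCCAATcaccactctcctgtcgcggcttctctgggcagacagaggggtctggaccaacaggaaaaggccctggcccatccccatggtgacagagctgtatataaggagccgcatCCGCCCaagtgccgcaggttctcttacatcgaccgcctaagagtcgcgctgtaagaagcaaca
Tubb2a, chr13:34078009-34078258, minus strand: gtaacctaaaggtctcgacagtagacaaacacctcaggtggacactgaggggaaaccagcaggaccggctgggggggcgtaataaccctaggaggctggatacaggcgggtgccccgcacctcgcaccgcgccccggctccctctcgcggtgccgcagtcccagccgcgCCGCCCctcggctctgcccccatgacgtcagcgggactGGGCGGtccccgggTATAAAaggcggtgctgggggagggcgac
Tuba1c, chr15:99029641-99029890, plus strand: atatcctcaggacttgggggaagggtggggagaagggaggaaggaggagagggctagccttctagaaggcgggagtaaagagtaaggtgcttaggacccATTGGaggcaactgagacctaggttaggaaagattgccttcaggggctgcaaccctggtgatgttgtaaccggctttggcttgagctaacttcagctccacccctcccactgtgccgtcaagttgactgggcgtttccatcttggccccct
Tuba1a held CCAAT and GGGCGG 1 time each. Tubb2a held TATAAA 1 time, at 29 bases before the start, and GGGCGG 2 times. Tuba1c held CCAAT 1 time and neither of the other motifs. These 3 promoters do not stand for all genes that fell or rose. Tubb5, which also fell, held CCAAT 2 times and neither of the other motifs. Tuba4a, which passed as lower in KO only, held GGGCGG 2 times and neither of the others. Atat1, which rose, also held only GGGCGG, 2 times. Among 32851 mouse promoters of the same length, 33.8% held CCAAT, 12.4% held TATAAA and 32.7% held GGGCGG. A match of letters is not a bound site.

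Other alpha and beta tubulin genes were scarce. Tuba3a and Tubal3 had 0 reads in all 12 libraries, Tubb1 had 1 read in all, and Tuba3b had 1 read in WT 24 h and 1 in WT 0 h. Tubb3, a neuronal isotype, had 2, 4 and 3 reads in KO 24 h and 3, 20 and 6 in WT 24 h, against 0 in each KO 0 h library and 1, 2 and 0 in WT 0 h. It did not reach the low-count filter and was not tested. Tuba8 had at most 9 reads in a library. Tubb2b averaged 3.26 CPM in KO 24 h against 5.73 in KO 0 h and did not pass (log2 -0.84, edgeR QL, BH-adjusted p = 0.0774). In WT it fell to 3.13 CPM at 24 h, against 6.39 CPM at 0 h (log2 -1.05, edgeR QL, BH-adjusted p = 0.021). Tubb4a, an isotype of brain, fell in KO to 1.89 CPM at 24 h, against 4.89 CPM at 0 h (log2 -1.33, edgeR QL, BH-adjusted p = 0.0185), and had 3.64 CPM in WT 24 h and 3.24 in WT 0 h (log2 0.17, not passed). The difference between these changes did not pass (log2 -1.503, edgeR QL, BH-adjusted p = 0.895).

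Genes that fold and assemble tubulin are described from the same fit. Subunits of CCT, the chaperonin that folds new actin and tubulin chains, rose over time: 6 of 8 in KO (median log2 0.41) and 7 of 8 in WT (median log2 0.42). Of all tested genes 19.4% in KO and 20.2% in WT were called higher, and their median was -0.0028 in KO and 0.0027 in WT. Tcp1 rose by log2 0.70 in KO and 0.82 in WT, Cct6a by 0.70 in KO and 0.69 in WT, Cct3 by 0.64 in KO and 0.44 in WT, and Cct4 by 0.42 in KO and 0.46 in WT. Of the 6 prefoldin subunits, which hand chains to CCT, 0 passed in either genotype (edgeR QL). Over all tested genes 40.4% passed in KO and 40.7% in WT, so at least these shares had an unadjusted p below 0.05. For prefoldin that held for 1 subunit in KO and 2 in WT. DESeq2 called 0 subunits in KO and 1 in WT, beside 4405 of all 10981 tested genes in KO and 4432 in WT. Pfdn5, the most abundant subunit, had log2 -0.25 in KO and -0.31 in WT. Of 7 tubulin folding cofactors, 1 rose and 1 fell in KO and 2 rose in WT, beside 40.4% of all tested genes called in KO and 40.7% in WT. Tbcd, which helps to join the heterodimer, rose by log2 0.64 in KO and 0.55 in WT. Tbce rose in WT (log2 0.85) and had log2 0.19 in KO (not passed), a difference of -0.66 that did not pass (edgeR QL, BH-adjusted p = 0.903). Tbcel fell in KO (log2 -0.51) and had log2 -0.26 in WT (not passed), a difference of -0.24 that did not pass either (edgeR QL, BH-adjusted p = 0.996).

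Of 12 tested genes of gamma, delta and epsilon tubulin and the gamma-tubulin complex, which nucleates microtubules, 2 rose in KO and 1 rose in WT, where 19.4% of all tested genes in KO and 20.2% in WT were called higher. Tube1, the epsilon tubulin gene, was higher by log2 1.11 in KO and 1.57 in WT, but it reached the low-count filter only through the 24 h libraries. A rise was thus built into its selection for testing, and it was the only gene of this list called in WT. Tubgcp4 rose by log2 0.39 in KO and had 0.10 in WT (not passed), and the difference did not pass (log2 0.29, edgeR QL, BH-adjusted p = 0.996). Of 8 tested genes listed for glutamylation, glycylation and deglutamylation, 1 fell in KO, and 2 rose and 2 fell in WT, beside 40.4% of all tested genes called in KO and 40.7% in WT. Ttll12 fell by log2 0.68 in KO and by 0.51 in WT. Ttll5, a glutamylase gene, fell by log2 0.62 in WT and had log2 -0.38 in KO (not passed). Agbl3, a deglutamylase gene, was higher in WT by log2 2.23 and had log2 1.58 in KO (not passed), and it too reached the filter only through the 24 h libraries. The count of genes that rose in WT includes it, though a rise was built into its selection. Of 2 tested genes of the tyrosination cycle, Ttl and Ccdc23, 0 passed over time (edgeR QL). Over all tested genes 40.4% passed in KO and 40.7% in WT, so at least these shares had an unadjusted p below 0.05. Of Ttl and Ccdc23 that held for 1 in KO and 0 in WT. DESeq2 called 1 of them in KO and 0 in WT, beside 4405 of all 10981 tested genes in KO and 4432 in WT. Ccdc23, more abundant than Ttl, had log2 -0.55 in KO and -0.42 in WT. Of 18 tested genes of microtubule dynamics and severing, 4 rose and 3 fell in each genotype, 7 of 18 beside 40.4% of all tested genes in KO and 40.7% in WT. Stmn1, whose product sequesters tubulin dimers, changed by log2 -1.44 in KO and -1.14 in WT. Mapre3, a plus-end binding protein gene, changed by log2 -0.999 in KO and -1.11 in WT. Katna1, a severing enzyme gene, rose by 0.58 in KO and 0.45 in WT, and Ckap5, a microtubule polymerase gene, rose by 0.41 in KO and 0.62 in WT. Between KO and WT, 0 of the 77 tested genes of these lists, proliferation markers included, passed at 24 h or 0 h (edgeR QL), and DESeq2 called 0. At an unadjusted p below 0.05 there were 5 of 77 at 24 h, beside 7.06% of all tested genes, and 6 of 77 at 0 h, beside 8%. The most abundant tested gene of each list, namely Tubb2b, Tubgcp3, Tbcd, Pfdn5, Tcp1, Ccdc23, Ttll12, Map4 and Pcna, had log2 KO over WT between -0.099 and 0.13 at 24 h and between -0.13 and 0.16 at 0 h. Single genes differed more in either direction without passing. At 0 h, Ttl in KO was 0.455 times the WT level (interval 0.294 to 0.703, edgeR QL, BH-adjusted p = 0.122). Tbce in KO was then 1.52 times the WT level (interval 1.15 to 2.01, edgeR QL, BH-adjusted p = 0.295). The interaction of genotype and time passed for 0 of the 77 genes (edgeR QL) with 2 at an unadjusted p below 0.05, beside 5.24% of all tested genes, and DESeq2 called 0.

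**Figure D5:**
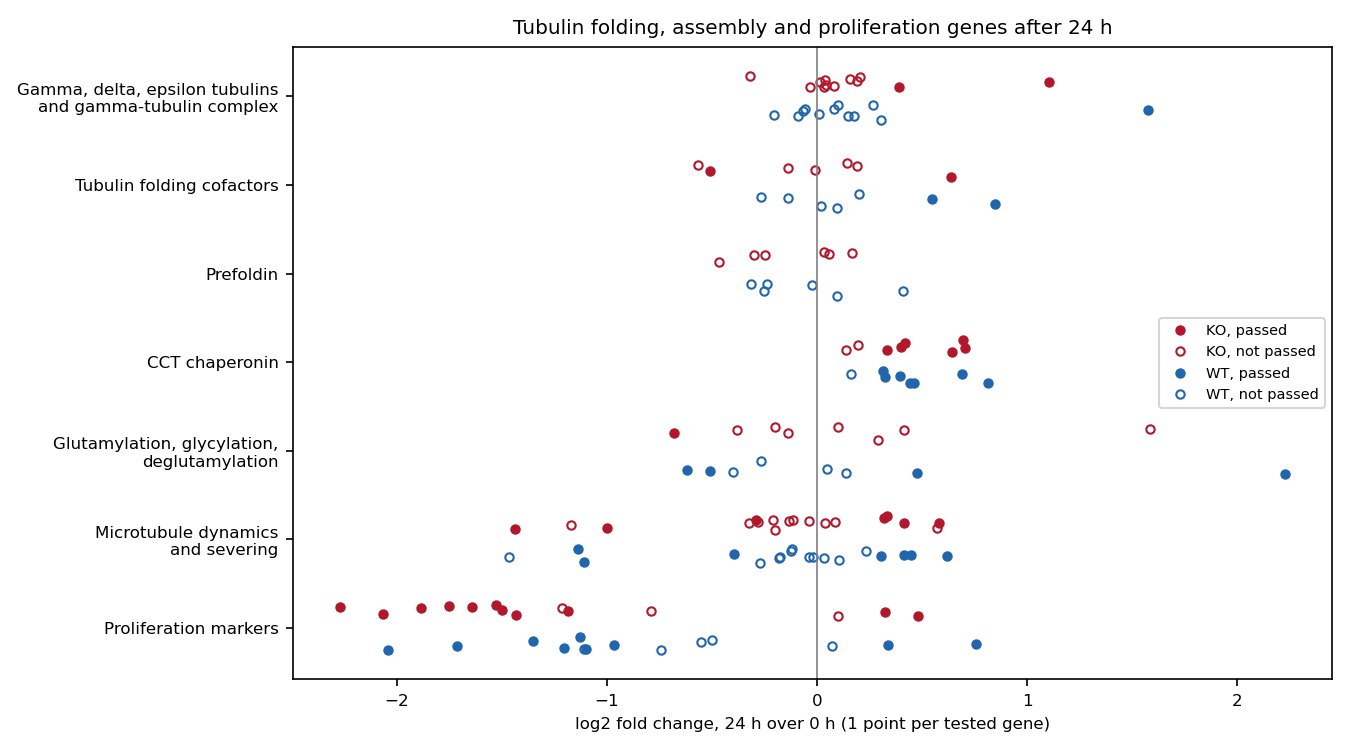
Log2 fold change of 24 h over 0 h for each tested gene of the lists, in KO cells (upper, red) and WT cells (lower, blue) of each row; filled points passed edgeR's test at a BH-adjusted p below 0.05. CCT subunits lie to the right of 0 (medians 0.41 in KO and 0.42 in WT), and proliferation markers lie mostly to the left (medians -1.47 in KO and -1.03 in WT). Among the points, Tube1 and Agbl3 reached the low-count filter only through 24 h libraries, and Kif2c and Bub1 only through 0 h libraries.

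Mitotic spindles are built of tubulin, so proliferation markers are given beside it. Of 14 markers, 2 rose and 9 fell in KO and 2 rose and 7 fell in WT at 24 h. Of all tested genes 19.4% were called higher and 21% lower in KO, and 20.2% higher and 20.5% lower in WT. Mki67 changed by log2 -2.06 in KO and -1.35 in WT, and Ccnb2, a mitotic cyclin gene, by -2.27 in KO and -2.04 in WT. Ccnb1, another mitotic cyclin gene, fell by log2 1.88 in KO and had log2 -0.50 in WT (not passed), and the difference did not pass (log2 -1.38, edgeR QL, BH-adjusted p = 0.964). Bub1, a spindle checkpoint gene, was lower by log2 1.75 in KO and 1.71 in WT and reached the filter only through the 0 h libraries. The counts of markers that fell include it, though a fall was built into its selection. The 2 that rose, named after their values were seen, were the replication licensing genes Mcm2 (log2 0.48 in KO and 0.76 in WT) and Mcm5 (log2 0.33 in KO and 0.34 in WT). The 14 markers summed to 365 ± 31.1 CPM in KO 24 h, 405 ± 45.7 in WT 24 h, 450 ± 6.65 in KO 0 h and 434 ± 55.0 in WT 0 h (SD, n = 3 each). The part of proliferation in the tubulin changes was not tested.

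As a description without a test, the genes whose log2 CPM followed a gene most closely over the 12 libraries were sought among 10237 tested genes. The libraries form 2 sets by time, so any gene that changed over time correlates with others that did. For Tubb5 these were Frat2 (Pearson r = 0.97), Rpl41 (0.968) and Gnb2l1 (0.966). For Atat1 they were Eml5 (0.952), Srek1 (0.949) and Pcdhga10 (0.93). For Tuba1b they were Sf3b2 (0.891), Uba1 (0.866) and Pde12 (0.818), and for Hdac6 they were Selp (0.86), Ddhd2 (0.791) and Mtmr2 (0.791). Among the 10 genes, Tubb5 had r = 0.912 with Tubb2a and 0.887 with Tuba1a, but 0.279 with Tuba1b. Hdac6 and Atat1 had r = 0.298 with each other.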

How the data were processed

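Total RNA libraries were made from 100 ng of RNA with ribosomal RNA depletion, per the labels' protocols. The deposited values are read counts per gene symbol, 1 table per library. The submitters' processing notes name STAR 2.6.0c, DESeq and the build hg19, a human build, while the gene symbols are murine, which leaves the build of the counts uncertain. Neither the counting program nor its strand option is named in the labels. The 5 closing entries of each table name no gene and entered neither library sizes nor tests. Of all reads listed, 22.8% to 35.4% had no feature, 0.412% to 0.576% were ambiguous and 25.7% to 30.9% aligned to several places.

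Groups came from the sample titles. Counts were scaled with TMM factors, filtered with filterByExpr (minimum count 10, minimum total 15) and tested with edgeR 4.0.16 in R 4.3.3 by the quasi-likelihood test, robust, in 1 fit of 4 groups without covariates. Benjamini-Hochberg adjustment ran over 10981 genes in each of 5 comparisons, with a threshold of 0.05. The biological coefficient of variation was 0.115. Replicates of every pair differed by more than sampling noise (chi-square per gene of 3.23 to 15.5). Intervals have 95% confidence, and those on read ratios cover counting error only. The model code was tested on simulated counts. Exon lengths, overlaps and transcript words came from the GENCODE mouse annotation of GRCm38 in the reference, which may not be that of the counts, and promoters from RefSeq.

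The 10 genes and all lists were chosen with earlier results of these data known. All 10 genes and the other alpha and beta tubulins are named, and of each pathway list and comparison up to 3 passing genes with the largest changes or, where none passed, the most abundant gene. Other list genes were named after their values were seen. Alternatives were DESeq2 1.42.0, RLE scaling, no filter, a minimum count of 50, fits of only the 2 groups compared, a replicate block, library sizes without Rn45s, each library left out in turn, and other lengths, of which the unique words were added after seeing the data.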

Additional observations from a re-analysis of the deposited data

How the results depend on the processing

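Outside the refits without a library, 333 of 334 fold changes of the 10 genes under the alternatives kept their direction and their side of the threshold. The exception was Tuba4a over time in KO without a low-count filter (log2 -0.21, adjusted p = 0.086). In the 360 refits without 1 library, 24 turned direction, 14 lost the call and 2 gained it. The number of the 10 genes passing over time ranged from 4 to 6 in KO (4 without KO 24 h replicate 1, 1 higher and 3 lower) and from 5 to 6 in WT. It was 0 between genotypes and for the interaction. Calls over all tested genes fell as well. In KO they ranged from 3697 of 11184 (without KO 24 h replicate 1) to 4117, against 4435 of 10981 in the main fit. In WT they ranged from 3863 to 4179, against 4470. Between genotypes 14 to 30 of all tested genes passed at 24 h and 17 to 33 at 0 h, and at most 1 for the interaction. Log2 fold changes that changed sign had not passed. Over time, Tuba1b ranged from -0.029 to 0.16 in KO and -0.10 to 0.057 in WT. Between KO and WT at 24 h, Hdac6 ranged from -0.059 to 0.51 and Tuba1a from -0.0070 to 0.10. Between KO and WT at 0 h, Tuba1c ranged from -0.17 to 0.11, Tubb2a from -0.20 to 0.083 and Tubb5 from -0.029 to 0.017. For the interaction, Atat1 ranged from -0.36 to 0.46, Hdac6 from -0.30 to 0.27, Tubb2a from -0.20 to 0.081 and Tubb6 from -4.82 to 0.10. The fitted log2 fold change of Tubb6, which depends on the prior count where a group is near 0 reads, ranged from 2.02 to 4.09 over time in KO, from 3.37 to 7.40 in WT and from 0.41 to 5.33 between KO and WT at 0 h. The cause was not tested. Same-numbered samples of groups compared had correlations of deviations between -0.0884 and 0.0934, and differently numbered ones between -0.131 and 0.129. Over time in WT the same-numbered ones had 0.0139 to 0.0934 and the others -0.0866 to 0.0158. Over time in KO the same-numbered ones had -0.00224 to 0.0477 and the others -0.058 to 0.0247. The numbers were not taken to pair the samples, but these values do not show that the samples are unpaired. With a replicate block, 7 genes passed over time in KO, 6 in WT and 0 between genotypes, and 4399 of all genes passed over time in KO and 4428 in WT. These counts include Tubb6. Tubb6, Atat1 and Hdac6 had at most 85 reads per library, and they had the widest intervals of the 10 genes in each comparison, which also hold the spread between libraries.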
